A study of Mus musculus with 26 samples.

Results

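Gene expression was described in the inner cell masses (ICMs) of mouse embryos that were cultured with the DMSO vehicle alone. They were chosen by the treatment label, not by a measured value, and make up 5 of the 26 libraries of the series. The other libraries are 7 ICMs cultured with LY294002 (LY), an inhibitor of PI3K, at 10 µM, 8 cultured with FGF4 and heparin at 1 µg/ml, and 6 cultured with both. All embryos were of the outbred CD-1 strain, came from natural matings, and were cultured in KSOM medium for 24 h from E2.75, the morula stage. In every group the zona pellucida was taken off, the outer cells were lysed by immunosurgery, and each ICM gave 1 FLASH-seq library of polyadenylated RNA, a full-length single-cell method used here on a whole ICM. Embryos of 5 litters were mixed before they were shared out, so the litter of a library is unknown. The DMSO ICMs are vehicle-cultured controls, and ICMs without DMSO or outside culture were not analysed here. DMSO replicates carry the numbers 3, 6, 7, 8 and 9, and lists of 5 values below keep that order.

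The ICM is the group of inside cells of the blastocyst. Its cells become epiblast, the source of the embryo proper, or primitive endoderm, which lines the yolk sac, while the outer trophectoderm builds the placenta. Early ICM cells carry both the epiblast factor NANOG and the primitive endoderm factor GATA6. FGF4 made by epiblast-biased cells acts through FGFR1, FGFR2 and the ERK kinases to favour primitive endoderm, and PI3K signals through AKT to FOXO factors and mTOR. Embryos of this age rely on pyruvate and mitochondrial respiration and begin to take up more glucose as the blastocyst forms.

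Genes that were abundant in DMSO ICMs mostly had promoters rich in the base pair step CG, and 1 of the most abundant genes had none in the window used. The promoters of Ran and Khdc3, a ubiquitous and an egg and early embryo gene that are both among the 15 most abundant protein-coding genes, are shown as the ends of that range. The sequences are RefSeq windows of GRCm38.p6 with 250 bases before and 50 bases after the gene start, printed on the gene's strand with each CG in capitals. Ran lies at chr5:129019906-129020205 (plus strand) and Khdc3 at chr9:73102148-73102447 (plus strand).
Ran: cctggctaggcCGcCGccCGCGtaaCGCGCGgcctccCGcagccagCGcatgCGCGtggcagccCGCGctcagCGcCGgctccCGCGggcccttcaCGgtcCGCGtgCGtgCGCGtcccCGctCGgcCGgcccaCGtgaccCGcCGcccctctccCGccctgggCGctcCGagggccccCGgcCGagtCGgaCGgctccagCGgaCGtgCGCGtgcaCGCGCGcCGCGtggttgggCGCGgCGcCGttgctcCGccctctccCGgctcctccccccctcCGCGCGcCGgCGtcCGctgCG
Khdc3: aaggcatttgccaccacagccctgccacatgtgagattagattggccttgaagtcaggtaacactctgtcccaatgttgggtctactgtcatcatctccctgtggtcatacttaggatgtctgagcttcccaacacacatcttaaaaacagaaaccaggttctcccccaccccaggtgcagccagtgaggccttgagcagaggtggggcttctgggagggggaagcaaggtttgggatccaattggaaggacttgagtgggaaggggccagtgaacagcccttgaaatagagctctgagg
The Ran window held 58 CG steps, and 99.9% of promoters had as many or fewer. The Khdc3 window held 0 CG steps, as did 5.6% of promoters. In the GENCODE annotation used for biotypes Khdc3 spans chr9:73101836-73104438, so its RefSeq window lies inside that span. The sequence before the GENCODE start was not read. Promoters were compared for 13838 protein-coding genes with 1 window in the table. The 5876 genes listed at 0 TPM in all 5 DMSO libraries had a median of 3 CG per window, against 14 over all 13838 promoters. The 238 genes with a mean TPM of at least 500 had a median of 22.5, and 2.1% of them had fewer than 5 CG, against 61.0% of the genes listed at 0. Between a mean TPM of 1 and 500 the median stayed between 21 and 22. The 1245 genes above 0 and under 1 TPM lay between, with a median of 15 and 17.3% of them under 5 CG, so the share of such promoters fell along the lower range of levels. CG reads the same on both strands. This is a description of these windows, without a test. Of the 100 most abundant genes 63 had 1 window, and Khdc3 was the only one of these with fewer than 5 CG.

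Values are TPM, a share of transcripts per length, in which each library adds up to the same total, so they rank genes within a library per length but hold no read number and the depth is unknown. The 5 DMSO libraries listed between 10212 and 11367 genes at TPM of at least 1. The medians of this number were 10089 in LY, 10504.5 in FGF4, 8650.5 in LY+FGF4 and 10692 in DMSO. Across 11641 genes, pairs of DMSO libraries had Pearson correlations of log2(TPM + 1) between 0.850 and 0.883, and no pair shared more than 8 equal values above 0. In all, 8554 genes were at TPM of at least 1 in all 5 DMSO libraries and 13757 in at least 1. A further 40225 of the 55254 symbols were listed at 0 in all 5. Symbols of mitochondrially encoded genes numbered 0 in the table, so the respiratory chain below is that of nuclear genes only.

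Defining markers of the ICM were present and those of cells outside the embryo were at or near 0. The ICM factor Pou5f1 had 1440, 1698, 1653, 1604 and 1350 TPM, which makes it one of the steadiest lineage genes. Of 13 markers of cumulus, blood and fibroblast cells, 9 were listed at 0 in all 5 libraries, among them Ptprc, Hbb-bs, Cyp19a1 and Col1a2. The exceptions that reached a mean TPM above 1 were Pecam1 (9.94 ± 4.70, SD, n = 5), the endothelial adhesion gene that ICM cells also express, and Thy1 (9.68 ± 14.2). Of 10 genes of the 2-cell stage in the table, 9 were at 0 in all 5, including Zscan4c, Zscan4d, Zscan4f and Zfp352. The exception was the zinc finger gene Zfp809, at 56.1 ± 34.1 TPM. Egg transcripts were mixed. Of 18 oocyte-derived genes, 7 were at 0 in all 5, among them Zp1 and Bmp15, and Zp2, Zp3 and Gdf9 had means of 2.07, 2.68 and 0.984 TPM. Others that the early embryo also uses were high, with Khdc3 at a mean of 2595, Dppa3 at 875 and Tle6, a partner of KHDC3, at 25.9 TPM.

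Markers of the outer layer were present in these libraries in spite of the immunosurgery, in an incomplete set. The trophectoderm factor Cdx2 had 178, 153, 29.1, 16.2 and 41.6 TPM, so replicates 3 and 6 stood above the other 3. The keratins Krt8 (345 ± 79.5) and Krt18 (147 ± 74.3), the epithelial 14-3-3 protein Sfn (749 ± 202) and the claudins Cldn4 (263 ± 56.4) and Cldn7 (216 ± 53.04) were above 50 TPM in every library. Other trophectoderm genes were low, with Gata3 at a mean of 3.89, Krt7 at 2.86, Elf5 at 0.458 and Gata2 at 0.124 TPM. Of 29 trophectoderm genes looked at, 22 were at TPM of at least 1 in all 5 libraries. Summed TPM of the trophectoderm factors was highest in replicates 3 and 6, at 393 and 299.8, against 134, 139 and 196 in replicates 7, 8 and 9. Whether remaining outer cells or ICM cells hold these transcripts was not tested, and in a library of a whole ICM fewer cells of a type and less RNA per cell cannot be told apart.

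The most abundant transcripts of DMSO ICMs were those of Ran, Dppa5a, Atp5b and Ewsr1. Ran, the GTPase of nuclear transport, came first with 5945, 6239, 5255, 6995 and 6222 TPM. Dppa5a, an RNA-binding protein of pluripotent cells, followed with 5093, 5933, 6276, 7456 and 4534 TPM, and its level is uncertain where reads map to near-identical copies. Atp5b, the catalytic subunit of ATP synthase, had 4064, 6679, 6860, 6912 and 3471 TPM. Its values in replicates 3 and 9 lay below the other 3 libraries, while Ran varied little. Next by mean TPM came Ewsr1, an RNA-binding protein (4561 ± 981), Hsp90ab1, a cytosolic chaperone (4467 ± 955), Eif5a, a translation factor (3762 ± 662), and Tmem41b, a lipid scramblase of the endoplasmic reticulum (3101 ± 465). Means of 2842 ± 335 were found for Atp5a1, 2840 ± 232 for Actg1, a cytoplasmic actin, 2801 ± 718 for Ndfip1, an adaptor of ubiquitin ligases, 2662 ± 228 for Npm1, a nucleolar chaperone, and 2626 ± 324 for Cct4, a subunit of the CCT chaperonin. Genes near the top that are known mainly from the early embryo included Dppa5a, Khdc3, a subunit of the maternal subcortical complex (2595 ± 491), and, at rank 49, Pou5f1.

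**Figure D1:**
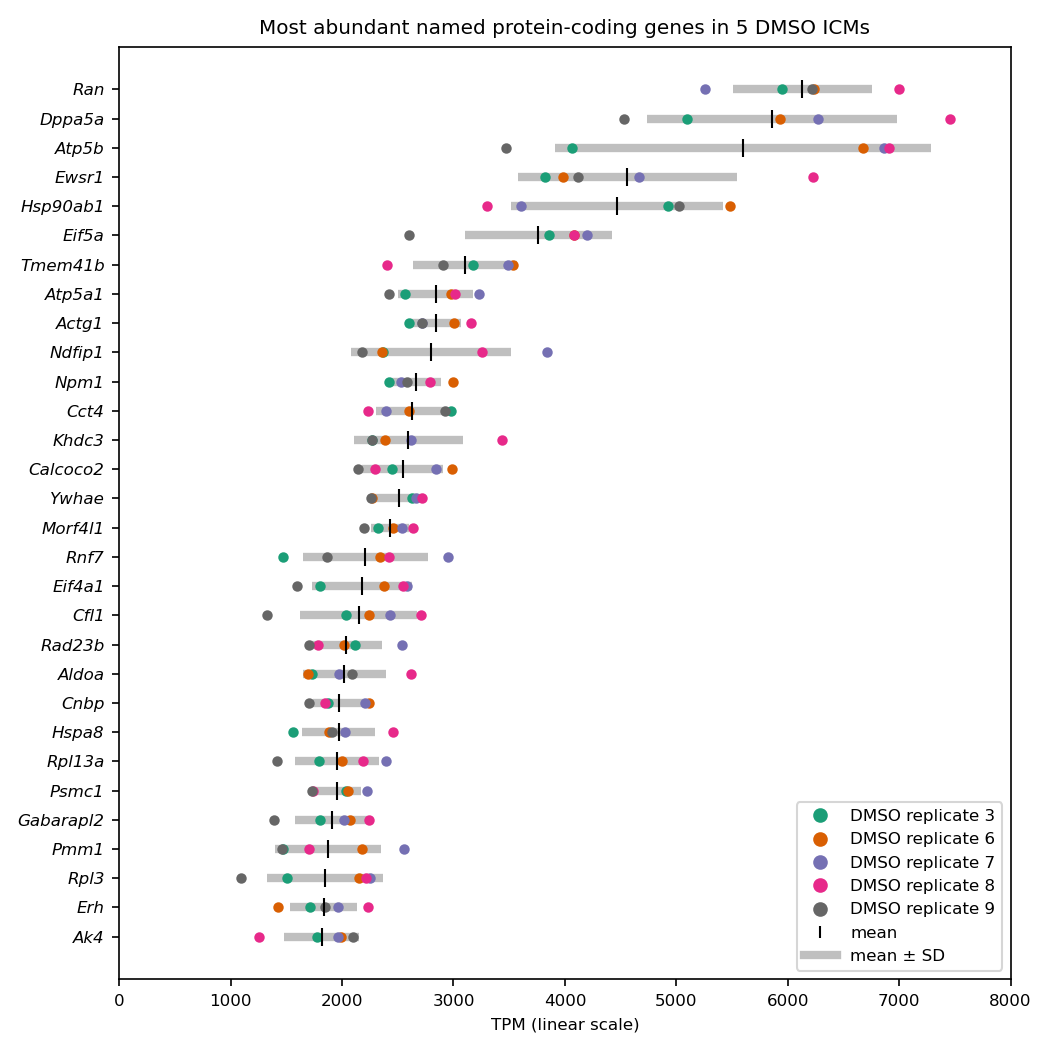
TPM (x axis, linear) of the 30 named protein-coding genes with the highest mean TPM, 1 row per gene, in the 5 DMSO libraries (points), with the mean (tick) and mean ± SD (grey bar). Ran, Dppa5a and Atp5b have the highest means, and the 2 lowest Atp5b values are those of replicates 3 and 9.

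The transcriptome was spread over many genes. The 100 most abundant genes held 18.3% ± 1.25 of TPM (SD, n = 5), from 16.5% in replicate 9 to 19.4% in replicate 8, and 683 genes were needed to reach 50% of the mean TPM. Of these 100, 93 were annotated as protein-coding. The highest of the others, named after its values were seen, was Gm24574, annotated as a miRNA gene, with 3191, 3963, 0, 2069 and 2708 TPM. Its level is uncertain where it overlaps another gene, and replicate 7 lists it at 0. Reads of ribosomal protein and actin genes can likewise be shared with near-identical copies. The 86 cytosolic ribosomal protein genes held 4.79% ± 0.384, and 84 of them were at TPM of at least 1 in all 5 libraries. Rpl13a (1958 ± 377) and Rpl3 (1845 ± 519) led this group.

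Other machines of protein and energy metabolism followed, grouped by gene symbol after the values were seen. Genes of the proteasome, which degrades tagged proteins, held 2.29% ± 0.079 of TPM, with Psmc1 highest (1957 ± 213). Translation initiation factors held 2.09% ± 0.0914, and the 17 ATP synthase genes held 1.33% ± 0.228. The 8 CCT chaperonin genes, whose product folds actin and tubulin, held 0.751% ± 0.0558, all 8 of them at TPM of at least 1 in every library. Mitochondrial ribosomal proteins held 0.985% ± 0.0465, close to the 0.893% ± 0.0814 of the heterogeneous nuclear ribonucleoproteins that package nuclear RNA. Nuclear-encoded subunits of respiratory complex I, III and IV held 0.698%, 0.256% and 0.445%. Canonical histone genes, whose transcripts mostly lack the poly(A) tail that this method captures, held 0.0263% ± 0.0109, and 1 of 59 was at TPM of at least 1 in all 5 libraries.

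Pluripotency genes shared by ICM cells were abundant and, for the most part, even between libraries. Of 16 such genes, 12 had a mean TPM of at least 100 and 13 were at TPM of at least 1 in all 5 libraries. After Dppa5a and Pou5f1 came Dppa2, a chromatin protein of early embryos (908 ± 226), and Dppa3, which protects DNA from demethylation in the egg and early embryo (875 ± 163). Nr0b1 was at 0 in 4 of the 5 libraries. Tcl1, an AKT co-activator that is also active in pluripotent cells, had 86.3, 38.4, 0, 88.5 and 53.1 TPM, and was the one pluripotency gene above 20 TPM that was absent from a library.

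Epiblast and primitive endoderm factors were present together, and more of the epiblast factors were found in every library. Nanog had 195, 186, 198, 160 and 152 TPM, and Gata6 had 294, 233, 210, 218 and 312 TPM. Neither varied by as much as 2-fold between libraries. Among epiblast factors, Tfcp2l1, a factor of naive pluripotency, was highest (787 ± 247), followed by Utf1 (372 ± 72.1) and Esrrb (180 ± 55.1). Klf2, another naive factor, was at 130 ± 29.3 TPM. Sox2, the partner of POU5F1, had only 19.9, 29.02, 16.8, 39.7 and 21.98 TPM, and Prdm14 had 3.54, 1.76, 18.7, 13.1 and 5.61. All 11 epiblast factors were at TPM of at least 1 in all 5 libraries. Among epiblast ligands, the co-receptor Tdgf1 (209 ± 76.3), the growth factor Gdf3 (70.2 ± 17.2) and Fgf4 (47.7 ± 21.8) were detected in every library, and Nodal was listed at 0 in all 5.

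Several primitive endoderm genes other than Gata6 varied widely. Sox17 had 69.0, 110, 11.7, 299 and 266 TPM, with replicate 7 lowest and replicates 8 and 9 highest. Gata4 had 0.88, 5.87, 6.53, 29.1 and 2.33 TPM, and Sox7 was listed at 0 in all 5. The receptor Pdgfra had 64.4, 52.8, 82.8, 118 and 73.1 TPM, a narrower range than Sox17. Of 8 primitive endoderm factors, 3 were at TPM of at least 1 in all 5 libraries, against all 11 epiblast factors. Of 12 secreted and matrix genes 7 were at TPM of at least 1 in all 5 libraries. Apoe, a lipid carrier (503 ± 133), Lamb1, a laminin chain (411 ± 155), and Sparc, a matrix glycoprotein (84.0 ± 31.5), were detected in every library, while Afp and Ttr were at 0 in all 5. Serpinh1, the collagen chaperone, had 6.89, 11.3, 0, 207 and 30.5 TPM. Lama1, named after its values were seen, had 7.38, 0.45, 0, 38.7 and 0.41. Replicate 8 was the highest library for Sox17, Gata4, Hhex, Pdgfra, Apoe, Lamb1, Sparc, Serpinh1 and Lama1. Replicate 7 was the lowest or at 0 for Sox17, Dab2, Serpinh1 and Lama1, but second highest for Gata4 and Pdgfra. Summed TPM of all primitive endoderm genes was 1449.3, 1494.8, 1475.9, 2720.6 and 1906.7, highest in replicate 8 and lowest in replicate 3. Replicate 8 was at the same time the lowest of the 5 for Cdx2. For the summed trophectoderm genes replicate 9 was lowest, with 2983.7, 3491.2, 2504.5, 2462.5 and 2103.5 TPM in the 5 libraries.

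**Figure D2:**
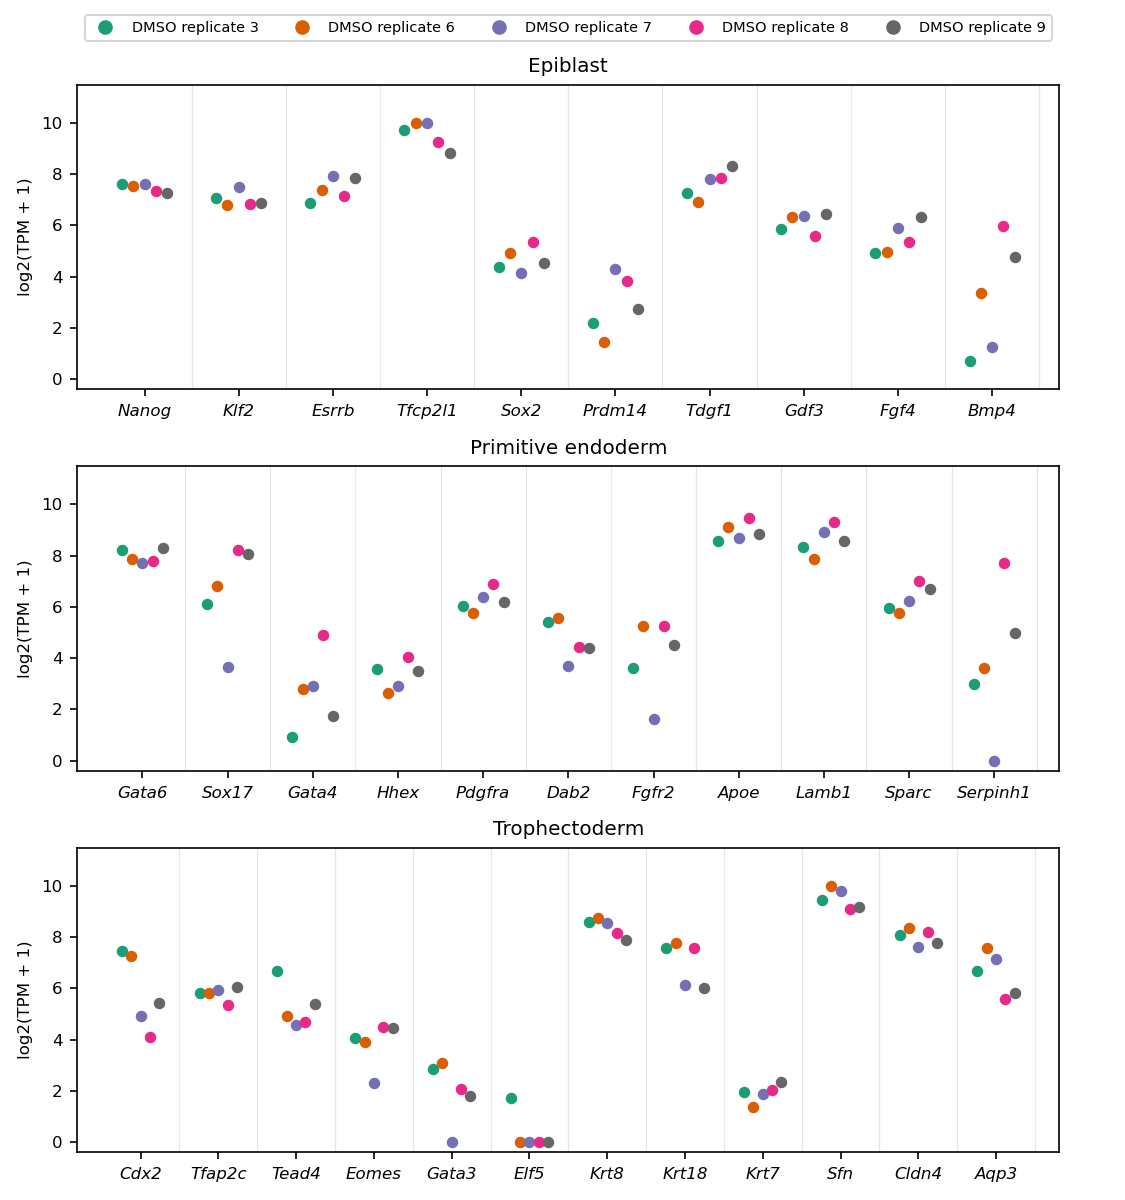
Levels, as log2(TPM + 1) on the y axis, of selected epiblast, primitive endoderm and trophectoderm genes in the 5 DMSO libraries, 1 point and colour per library. Nanog and Gata6 vary little, Sox17, Serpinh1 and Bmp4 spread over several log2 units, and Cdx2 is highest in replicates 3 and 6.

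Components of the FGF and ERK pathway were present from ligand to target. Of 10 FGF ligand genes, Fgf4 was the only one at a mean TPM of at least 10, and 6 were listed at 0 in all 5 libraries. Fgfr1 had 59.1, 62.4, 117, 61.5 and 125 TPM, and Fgfr2 had 11.3, 37.7, 2.07, 37.4 and 21.6, so Fgfr1 was above Fgfr2 in every library. Fgfr3 and Fgfr4 had means under 1 TPM. The adaptors Shc1 (283 ± 85.8) and Grb2 (120 ± 34.6) exceeded both receptors. All 10 RAS, RAF, MEK and ERK genes were at TPM of at least 1 in every library, and Hras was among the steadiest, at 72.5 ± 4.16. Of 12 targets and feedback genes 8 were at TPM of at least 1 in every library, and Etv5 (252 ± 76.3) and Myc (146 ± 96.3) had means above 100. Dusp4, an ERK phosphatase, had 16.2, 36.1, 1.03, 52.6 and 36.4 TPM. Its lowest value was in replicate 7, the library in which Fgfr2 and Sox17 were also lowest. The 12 targets and feedback genes together had 436, 382, 532, 591 and 646 TPM, so for their sum replicate 7 was above replicates 3 and 6. The feedback inhibitors Spry1, Spry2 and Spry4 and the phosphatase Dusp6 had means of 3.10, 10.5, 3.87 and 7.03 TPM.

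Catalytic PI3K subunits and most of the receptors and ligands above them were scarce, while the regulatory Pik3r2 and most of the AKT arm were not. Of 9 genes upstream of PI3K, 1 had a mean TPM of at least 10. Insr, the insulin receptor, averaged 4.29 TPM and Igf1r averaged 0.732, and the docking proteins Irs1 and Irs2 and the ligand Igf1 were listed at 0 in all 5 libraries. The class I catalytic genes Pik3ca, Pik3cb and Pik3cd averaged 0.966, 0.296 and 1.90 TPM, and Pik3cg was at 0. The regulatory subunit Pik3r2 had 34.7, 25.3, 37.8, 59.8 and 37.0 TPM and was above Pik3r1 (12.6, 7.95, 5.97, 18 and 20.03) in each library. Inpp5d, a phosphatase best known from blood cells that removes the PI3K product, averaged 40.4 ± 11.04. Akt1 (73.4 ± 16.5) and Akt2 (71.6 ± 4.90) were close, with Akt1 ahead in 2 of 5 libraries. Downstream, the translation repressor Eif4ebp1 (484 ± 85.9), the factor Foxo3 (136 ± 37.4) and the mTOR activator Rheb (114 ± 24.6) were the highest, and Mtor averaged 4.45 ± 2.12.

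Ligands of other developmental pathways were mostly at or near 0. Of 10 Nodal and BMP ligand and co-receptor genes, 5 were listed at 0 in all 5 libraries (Bmp2, Bmp7, Inhba, Lefty2 and Nodal). Bmp4 had 0.64, 9.24, 1.40, 62.0 and 26.0 TPM, again highest in replicate 8. The BMP target Id3 had 56.7, 74.2, 235, 209 and 140 TPM, highest in replicates 7 and 8, so it did not follow the order of Bmp4. Of 9 WNT ligand and secretion genes, the acyltransferase Porcn (124 ± 51.9) was the only one above a mean of 10, and Wls, the WNT carrier, was at 0 in all 5. The receptor Fzd5 (20.4 ± 5.49) and the target Axin2 (30.9 ± 8.83) were present in every library. In the LIF pathway Stat3 (141 ± 31.1) and Jak1 (123 ± 60.5) were the highest, while the receptor Lifr had 0.24, 33.9, 0, 1.97 and 33.1 TPM. In the Hippo pathway Tead2 (73.4 ± 25.7), Yap1 (42.5 ± 13.7) and Wwtr1 (32.3 ± 9.86) were detected in every library, and the kinases Lats1 and Lats2 averaged 1.196 and 4.67.

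Mitochondrial enzymes were detected in nearly all cases, and levels differed along glycolysis. Of 23 genes of the TCA cycle, 22 were at TPM of at least 1 in every library and 17 had a mean of at least 100, led by Sdha (1370 ± 351) and Mdh2 (771 ± 47.4). Pdhb, a pyruvate dehydrogenase subunit, averaged 1140 ± 172 and the pyruvate carrier Mpc1 215 ± 24.1, while the 4 inhibitory kinases Pdk1, Pdk2, Pdk3 and Pdk4 had means of 0.974, 1.40, 7.76 and 0. In glycolysis, Aldoa had 1734, 1697, 1970, 2618 and 2089 TPM and Pkm had 771, 981, 1136, 1266 and 1246. These lie far above the enzymes at the start of the pathway, Hk2 at 11.2 ± 2.63 and Pfkl at 22.96 ± 5.49. Gapdh, often used as a reference gene, averaged 170 ± 41.7, below Eno1 (447 ± 70.3), Gpi1 (412 ± 104) and Pgam1 (370 ± 41.3). All 7 pentose phosphate genes were detected in every library, and Pgd was among the steadiest, with 395, 414, 387, 429 and 435 TPM.

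Of 8 genes of sugar and lactate transporters, 4 had a mean TPM of at least 10. Slc2a8, an intracellular glucose transporter of blastocysts, was the highest (259 ± 85.2). Slc2a3 had 73.3, 169, 42.5, 34.2 and 60.3 TPM and Slc2a1 28.5, 48.9, 55.6, 30.9 and 38.5, so Slc2a3 was ahead in all but replicate 7. The lactate and pyruvate transporter Slc16a1 averaged 10.7 ± 5.03, and Slc16a3 and Slc16a7 were at 0 in all 5 libraries. Biosynthetic pathways were well represented. All 16 serine, folate and threonine genes were detected in every library, led by Psat1 of serine synthesis (648 ± 75.8) and Shmt2 (256 ± 83.3), and Tdh, the threonine dehydrogenase of mouse pluripotent cells, averaged 120.5 ± 12.1. Of 20 lipid and sterol genes, 19 were detected in every library, with Fdps (782 ± 228) and Hmgcs1 (463 ± 138) of the mevalonate pathway highest. The rate-limiting fatty acid enzyme Acaca averaged 4.96 ± 2.97, below Acly (212 ± 38.6) and Fasn (32.5 ± 10.0) on either side of it in the pathway.

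Choice between isoenzymes and paralogs was largely the same from one ICM to the next. Of 97 families looked at, 96 had a summed mean TPM of at least 5, and in 75 of these the same member led in all 5 libraries. In 22 the leader held more than 90% of the family's TPM in every library. The other families had the member with the highest mean in front in 4 (13 families), 3 (5 families) or 2 libraries (3 families). A sign test over 5 libraries cannot reach 0.05, so no test was run. All 9 families of the cell cycle and survival and all 4 redox families had 1 leader, as did 9 of 10 carbohydrate families, against 8 of 14 signalling families.

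Several steps of glycolysis were held by 1 isoform. Aldoa was at 2022 ± 371 TPM, against 3.88 ± 3.64 for Aldoc. Pkm was at 1080 ± 207 against 0.16 for the liver and red cell form Pklr, and Pgk1 was at 82.8 ± 5.47 with the sperm form Pgk2 at 0. Ldha held between 96.8% and 100% of lactate dehydrogenase TPM, and Ldhb was listed at 0 in all but replicate 8. Eno1 held at least 94.8% of enolase TPM. Hexokinase and phosphofructokinase were less one-sided. Hk2, the form of muscle and fat, held between 49.0% and 78.4%, with the ubiquitous Hk1 at 6.36 ± 3.27 TPM. Pfkl, the liver form, held between 42.9% and 77.6%.

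Whether the mitochondrial or the cytosolic form was ahead differed between families. Txn2, the mitochondrial thioredoxin, was at 537 ± 85.3 against 212 ± 37.2 for the cytosolic Txn1. Sod2, the mitochondrial superoxide dismutase, was at 181 ± 18.2 against 21.6 ± 10.6 for the cytosolic Sod1. Shmt2 was at 256 ± 83.3 against 75.3 ± 14.7 for the cytosolic Shmt1. The cytosolic form was ahead in others. The cytosolic peroxiredoxin Prdx1 was at 749 ± 166 against 149 ± 26.7 for the mitochondrial Prdx3, and the cytosolic creatine kinase Ckb at 774 ± 184 against 162 ± 30.2 for the mitochondrial Ckmt1. Malic enzyme had the cytosolic Me1 at 136 ± 24.4 and the mitochondrial Me2 at 32.2 ± 21.9. Among ADP/ATP carriers, Slc25a5 was at 914 ± 230 and Slc25a4, the heart and muscle form, at 612 ± 72.5. Sucla2, of the ATP-forming succinyl-CoA synthetase, led Suclg2 of the GTP-forming one (464 ± 66.0 against 111 ± 27.9).

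Cytoskeletal and housekeeping families held some choices that differ from common reference genes. Gamma-actin, Actg1, was at 2840 ± 232 TPM, against 992 ± 230 for beta-actin, Actb. Tmsb10, an actin-binding thymosin, had a mean of 492 ± 174, and Tmsb4x, its X-linked relative, was at 1.05 ± 1.78. Tubb4b held between 66.0% and 77.2% of beta-tubulin TPM, ahead of Tubb5 at 152 ± 40.1. Cdh1, E-cadherin, held at least 96.1% of classical cadherin TPM, and Cfl1 at least 98.7% of cofilin TPM. The translation factor Eef1a1 (1039 ± 65.6) stood alone, with Eef1a2 at 0. The stress-induced chaperones Hspa1a and Hspa1b were at or near 0 (means of 0 and 0.072), while the constitutive Hspa8 was at 1969 ± 324.

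Some cell cycle and chromatin families had 1 dominant member and others did not. Ccnd3 held between 98.0% and 100% of D-type cyclin TPM (162 ± 42.6), with Ccnd1 at 0.81 and Ccnd2 at 0.05. Ccna2 (235 ± 62.9) and Cdk4 (371 ± 59.5) led families whose other members, Ccna1 and Cdk6, were at 0 and 7.72. The histone variant gene H3f3b was at 1691 ± 302 and H3f3a, which encodes the same protein, at 206 ± 5.04. Tet1, a dioxygenase that oxidises methylated DNA, held between 81.7% and 95.7% of its family (173 ± 14.3). In other families the leader held less, such as Ccnb1 with between 57.0% and 71.0% of B-type cyclin TPM and Hdac1 with between 53.8% and 70.8% of class I HDAC TPM. The DNA methyltransferases had no common leader. Dnmt1 averaged 24.7 ± 13.2, Dnmt3a 22.7 ± 11.4, Dnmt3l, a catalytically inactive cofactor, 20.8 ± 17.7 and Dnmt3b 18.3 ± 7.51, and the member in front differed between libraries. Uhrf1, which brings DNMT1 to newly copied DNA, stood above all 4, at 246 ± 32.3.

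**Figure D3:**
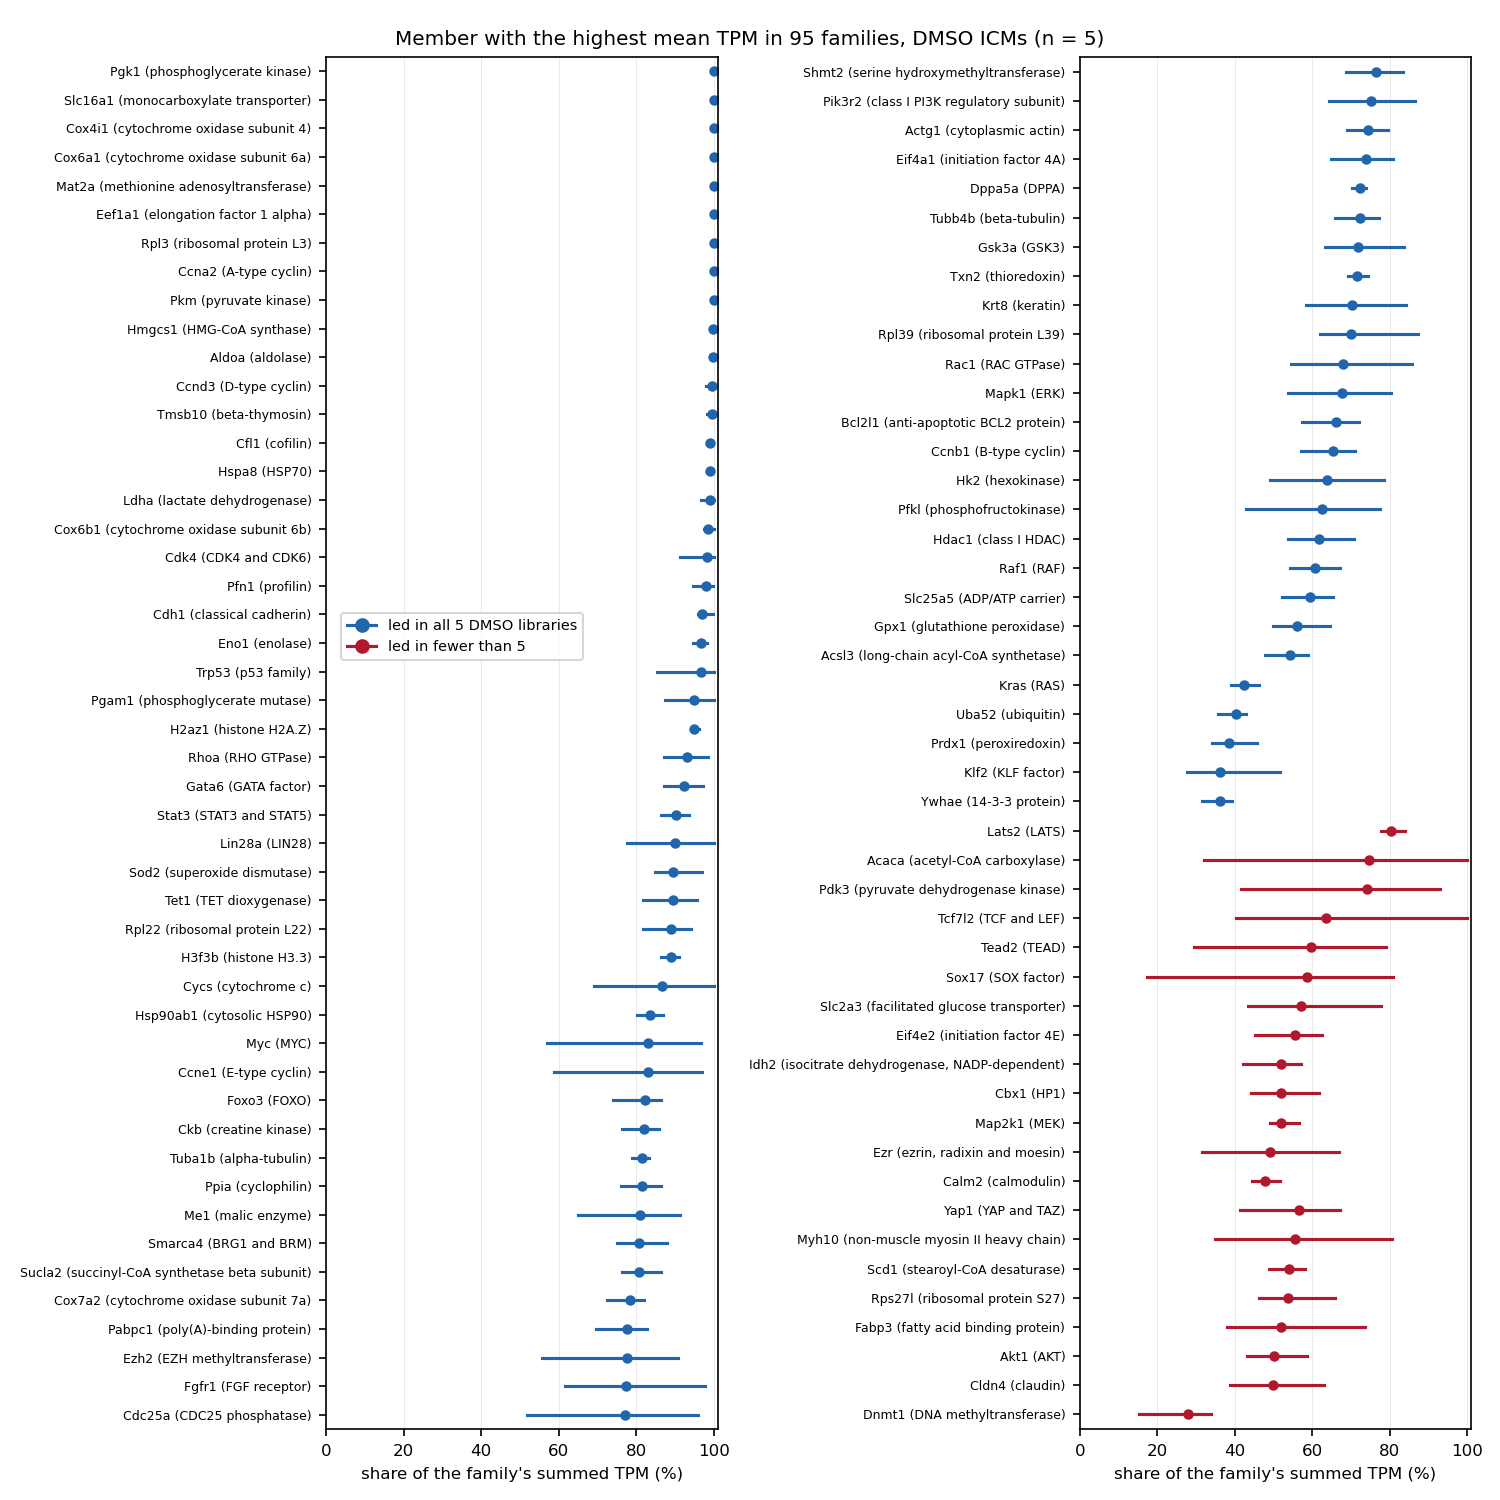
Share of a family's summed TPM (x axis, percent) held by the member with the highest mean TPM, for 95 of the 96 families in 5 DMSO libraries, with the mean (point) and the lowest and highest library (line). Blue families were led by the same member in all 5 libraries and red families in fewer, the lowest being Dnmt1. The glucose transporter family holds Slc2a1 to Slc2a4 only, without Slc2a8. Lats2 held at least 77.7% wherever a LATS gene was above 0, and a library with both at 0 counts as not led.

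The spread between DMSO ICMs depended on the level of a gene. The standard deviation of log2(TPM + 1) over the 5 libraries had a median of 1.01 among protein-coding genes with mean TPM between 1 and 5, and of 0.24 at 500 and above. The part of counting error in this was not tested, since the depth is unknown. Among 5657 protein-coding genes with a mean TPM of at least 20 the median was 0.38. A standard deviation under 0.2 was found for 780 of them, and one above 2 for 48. Of those 48, 37 were listed at 0 in at least 1 library and 9 had predicted symbols, such as Gm8797 with 691, 0, 541, 1043 and 1667 TPM.

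The steadiest named genes were led by Snrpa. Snrpa, a spliceosomal protein, had 457, 448, 456, 449 and 432 TPM, a standard deviation of 0.03 on the log2 scale. H3f3a had 200, 211, 211, 205 and 203 TPM (0.04), Stoml2, a mitochondrial membrane scaffold, 544, 562, 520, 560 and 549 (0.04). Rpl4 (1144 ± 42.9), Psma1 of the proteasome (664 ± 26.8) and the unfolding ATPase Vcp (368 ± 15.2) were also in this group of 10. Genes of the CCT chaperonin and the proteasome had median standard deviations of 0.18 and 0.19, and primitive endoderm genes had 0.55 over 13 genes. The median was 0.38 over all protein-coding genes with a mean TPM of at least 20, but these groups differ in level. The median member had a mean of 755 TPM in the CCT chaperonin and 541 in the proteasome. Protein-coding genes at 500 TPM and above had a median of 0.236, and those between 20 and 100 TPM had 0.455.

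The most variable named genes were of mixed function, and most were at 0 in some ICMs and clearly present in others. Nhej1, a DNA end-joining factor, was at 161 TPM in replicate 9 and 0 in the other 4. Epo, erythropoietin, had 43.6, 0, 0, 0 and 67.5 TPM. Aqp8, a water channel, had 0, 9.60, 0, 143 and 8.38. Stx16, a trafficking protein, had 100.9, 0.59, 64.3, 3.38 and 113, with replicates 6 and 8 low. The NOTCH target Hes1 had 27.2, 3.25, 0, 51.8 and 39.8 and the cell cycle inhibitor Cdkn1a 51.7, 75.6, 0, 19.9 and 17.1. The highest library was replicate 9 for Nhej1, Epo and Stx16, replicate 8 for Aqp8 and Hes1, and replicate 6 for Cdkn1a. Replicate 9 was the highest library for 25.3% of the 5657 genes, and replicate 7 the lowest for 24.4%, so no single library accounted for most extremes.

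**Figure D4:**
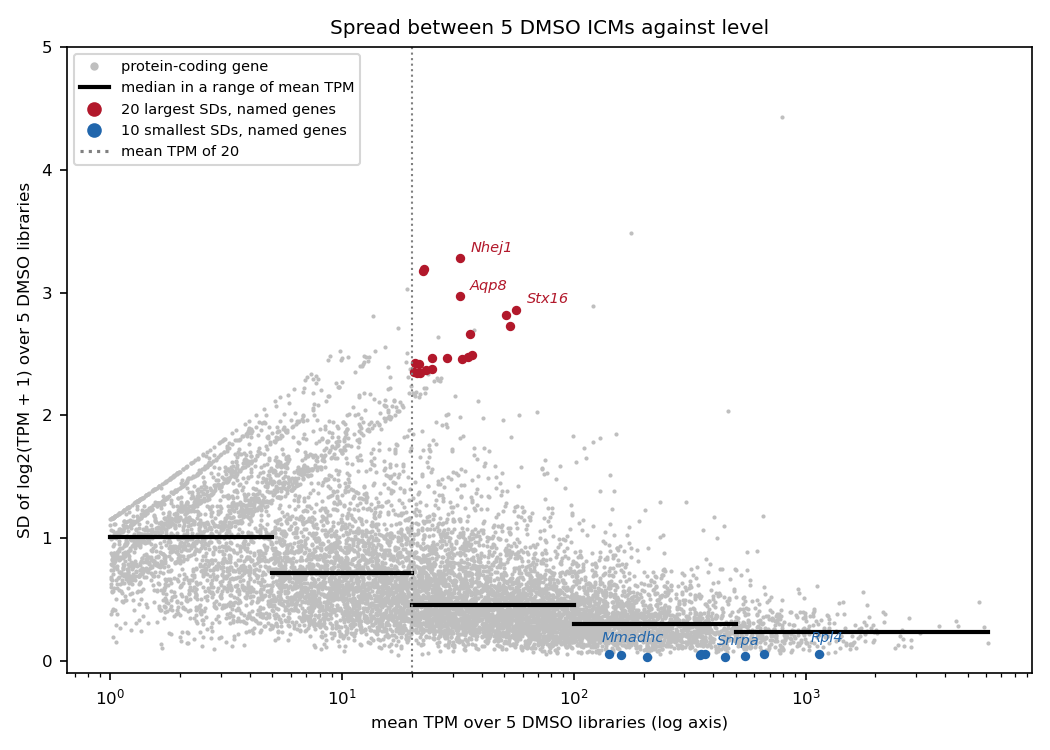
Standard deviation of log2(TPM + 1) over 5 DMSO libraries (y axis) against mean TPM (x axis, log scale) for protein-coding genes with a mean TPM of at least 1, with the median per range of levels (black bars). The median falls with level, and the 20 named genes with the largest values (red) lie at mean TPM between 20.4 and 56.4.

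Sex-linked transcripts divided the 5 ICMs. Y-linked Ddx3y had 0, 0, 35.1, 0 and 33.1 TPM and Eif2s3y 0, 0, 50.1, 0 and 62.3. Xist, the X-linked RNA of X inactivation, had 9.87, 10.6, 0, 10.95 and 0.30. Replicates 7 and 9 thus held Y-linked transcripts and little or no Xist, and replicates 3, 6 and 8 the reverse. Protein-coding genes of the X chromosome held 2.60%, 2.61%, 2.00%, 2.41% and 2.10% of TPM, lowest in replicates 7 and 9. These shares are a description without a test, since the libraries were told apart by transcripts and not by a label. Sox17 did not divide in this way, being lowest in replicate 7 and second highest in replicate 9. Fgfr1 and Fgf4 had their highest values in replicates 7 and 9. The share of all genes with this pattern was not counted, and a link with sex was not tested.

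How far the abundant genes of DMSO ICMs held their level under treatment was read from a limma test over 12034 genes and all 26 libraries, with adjusted p under 0.05. Under LY, 5 of the 100 most abundant genes were called, 4 higher and 1 lower, where 0.374% of all tested genes were called. Under FGF4, 26 were called, 6 higher and 20 lower, where 2.44% of all tested genes were called. Under LY+FGF4, 42 were called, 15 higher and 27 lower, where 9.5% of all tested genes were called. The 400 genes that follow in rank had 1.75%, 12% and 29% called under LY, FGF4 and LY+FGF4. The 100 genes were chosen by their level in the same DMSO libraries, so these shares describe them and carry no test. The counts rest on single DMSO libraries: they were 3 without DMSO replicate 3, 6, 8 or 9 or LY replicate 3, 4 or 6 under LY. Under FGF4 they were 14, 11 and 16 without DMSO replicates 6, 7 and 8, and under LY+FGF4 they were 20, 24 and 27 without the same libraries. The 3 comparisons share the DMSO libraries. The median log2 fold change over all tested genes was -0.10 under LY, -0.10 under FGF4 and -0.37 under LY+FGF4, against which the values below are to be read. LY+FGF4 libraries also listed the fewest genes. Without the libraries that listed fewer than 9000 genes 16 of the 100 were called in LY+FGF4, but only LY+FGF4 replicates 6 and 7 then remained. The part of the smaller group in this lower count was not tested.

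The leading genes themselves differed in how they behaved. Ran had a lowest, median and highest value of 2866, 5411 and 6388 TPM in LY+FGF4, against 5255, 6222 and 6995 in DMSO, and did not pass the test (limma adjusted p = 0.255). Dppa5a ranged from 4975 to 7724 with a median of 6270 in LY+FGF4, against 4534 to 7456 with a median of 5933 in DMSO (limma adjusted p = 0.659). Khdc3 fell in both FGF4 groups. It had 876, 1141 and 1942 TPM (lowest, median, highest) in FGF4 and 780, 956 and 1291 in LY+FGF4, against 2268, 2385 and 3436 in DMSO, with no overlap. Its calls held whichever library was left out. Its log2 fold changes were -1.07 ± 0.18 and -1.38 ± 0.20 (SE, limma adjusted p = 0.0019 and 8.7e-05). Atp5b fell by 1.02 ± 0.20 on the log2 scale in LY+FGF4 (limma adjusted p = 0.00176), at 2089, 2701 and 3236 TPM against 3471, 6679 and 6912 in DMSO. It also fell in FGF4, by 0.84 ± 0.19 (limma adjusted p = 0.0118), at 2362, 2747 and 4461 TPM, which overlap DMSO. The FGF4 call of Atp5b was lost without DMSO replicate 6 or 7 (limma adjusted p up to 0.061). Pou5f1 also fell in LY+FGF4, with 538, 850 and 1034 TPM against 1350, 1604 and 1698 in DMSO (log2 fold change -0.97 ± 0.16, limma adjusted p = 0.000416).

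The 5 abundant genes called under LY were led by Ftl1, the ferritin light chain that stores iron. It had 3035, 4077 and 6302 TPM (lowest, median, highest) in LY, against 1504, 1578 and 2373 in DMSO, and rose by a log2 fold change of 1.28 ± 0.18 (limma adjusted p = 0.000684). Arl6ip1, a membrane-shaping protein, had 1923, 2917 and 3393 in LY against 782, 1026 and 1484 in DMSO (1.37 ± 0.23, limma adjusted p = 0.00413). Rogdi and the tetraspanin Cd9 rose by 1.05 ± 0.24 and 0.66 ± 0.15 (limma adjusted p = 0.0417 and 0.034). Fbp2, a fructose bisphosphatase, fell by 1.01 ± 0.18, with 413, 548 and 763 TPM in LY against 997, 1121 and 1272 in DMSO (limma adjusted p = 0.0045). In each of these 5 genes the LY and DMSO libraries did not overlap. They were picked by their calls on the same values, so this adds no support, and the share of all tested genes without overlap was not counted. The calls of Ftl1, Arl6ip1 and Fbp2 held when any of the 12 libraries was left out. Those of Rogdi and Cd9 were each lost in 8 of the 12 cases, among them DMSO replicates 3, 6, 8 and 9 and LY replicates 3, 4 and 6, with limma adjusted p up to 0.155 and 0.123.

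Most family leaders of DMSO ICMs kept their place in the treated ICMs. Of the 75 families with 1 leader in DMSO, the same member led every library in 55 families under LY, 51 under FGF4 and 49 under LY+FGF4. It led under 50% of the libraries in 4, 7 and 7 families, which make up 13 different families. The 75 families were chosen by their leader in the same DMSO libraries, so these counts describe them and carry no test. The clearest case of a lost lead was Klf2. It led the KLF factors in all DMSO libraries and in 0 of 8 FGF4 and 0 of 6 LY+FGF4 libraries. Klf2 had 0, 1.34 and 41.2 TPM (lowest, median, highest) in FGF4 and 0, 13.7 and 77.4 in LY+FGF4, against 109, 115 and 180 in DMSO. Its log2 fold changes were -5.31 ± 0.92 and -4.01 ± 0.98 (limma adjusted p = 0.0019 and 0.00959). Klf5 rose in both, by 1.18 ± 0.26 and 1.199 ± 0.27 (limma adjusted p = 0.0112 and 0.00614), and led 7 of 8 FGF4 and 3 of 6 LY+FGF4 libraries. Without DMSO replicate 7 its call under FGF4 was lost (limma adjusted p = 0.0607), while that of Klf2 held whichever library was left out.

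The ADP/ATP carrier exchanged its leader under LY. Slc25a5 fell to 267, 427 and 577 TPM (lowest, median, highest) in LY, against 669, 881 and 1218 in DMSO, a log2 fold change of -1.09 ± 0.23 (limma adjusted p = 0.0264). Slc25a4 had 532, 579 and 726 in LY and 507, 645 and 671 in DMSO (limma adjusted p = 1), and it led all 7 LY libraries. The call of Slc25a5 was lost without DMSO replicate 3, 6 or 8 or LY replicate 4 or 8 (limma adjusted p up to 0.108).

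Under FGF4 the FGF receptors lost their order, as Fgfr2 had 21.9, 97.7 and 126 TPM against 2.07, 21.6 and 37.7 in DMSO, a log2 fold change of 2.38 ± 0.63 (limma adjusted p = 0.0378). Fgfr1 had 20.1, 63.8 and 128 in FGF4 and 59.1, 62.4 and 125 in DMSO (limma adjusted p = 0.57) and led 3 of 8 FGF4 libraries, Fgfr2 the other 5. Myc fell under FGF4 to 0, 8.93 and 89.8 TPM, against 29.1, 153 and 285 in DMSO (log2 fold change -4.19 ± 1.09, limma adjusted p = 0.0347), and led 2 of 8 libraries. Both calls were fragile, since that of Fgfr2 was lost in 10 and that of Myc in 8 of the 13 cases in which 1 library was left out, for Fgfr2 without DMSO replicate 3, 7 or 9 and for Myc without DMSO replicate 3, 7, 8 or 9. The limma adjusted p then reached 0.172 and 0.0989. Among 14-3-3 proteins, Ywhag and Sfn fell under FGF4, by 1.30 ± 0.30 and 1.79 ± 0.31 on the log2 scale (limma adjusted p = 0.0163 and 0.00205), the call of Ywhag being lost without DMSO replicate 7 (limma adjusted p = 0.061). Sfn is also a marker of the outer layer, and under FGF4 3 of 27 tested trophectoderm genes fell (Sfn, Cldn4 and Aqp3). Of 23 tested primitive endoderm genes 9 rose, Fgfr2, Sox17 and Gata4 among them. Over all tested genes 2.44% were called under FGF4, and 12% of the 400 genes that follow the 100 most abundant in rank. These lists were chosen with earlier results known, so their counts are a description. The summed TPM of the trophectoderm genes was 1227, 1842 and 2740 (lowest, median and highest library) in FGF4, against 2104, 2504 and 3491 in DMSO, and that of the primitive endoderm genes was 2285, 5889 and 7099 in FGF4, against 1449, 1495 and 2721 in DMSO. Of 15 tested epiblast genes, 5 fell under FGF4, Klf2 among them, and Klf5 rose, beside the same 2.44% of all tested genes. Summed TPM of epiblast genes was 850, 1148 and 1750 (lowest, median and highest library) in FGF4, against 2165, 2282 and 2628 in DMSO. The part of such shifts in the changes of family leaders was not tested. Ywhaz rose under LY+FGF4 by 1.25 ± 0.40 (limma adjusted p = 0.0462), where it led 5 of 6 libraries and Ywhae 1, but this call was lost in 10 of 11 cases with 1 library left out (limma adjusted p up to 0.0972). In the other 8 families, such as Pik3r2 and Pik3r1, neither the DMSO leader nor the member that led instead passed the test in the group concerned.

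**Figure D5:**
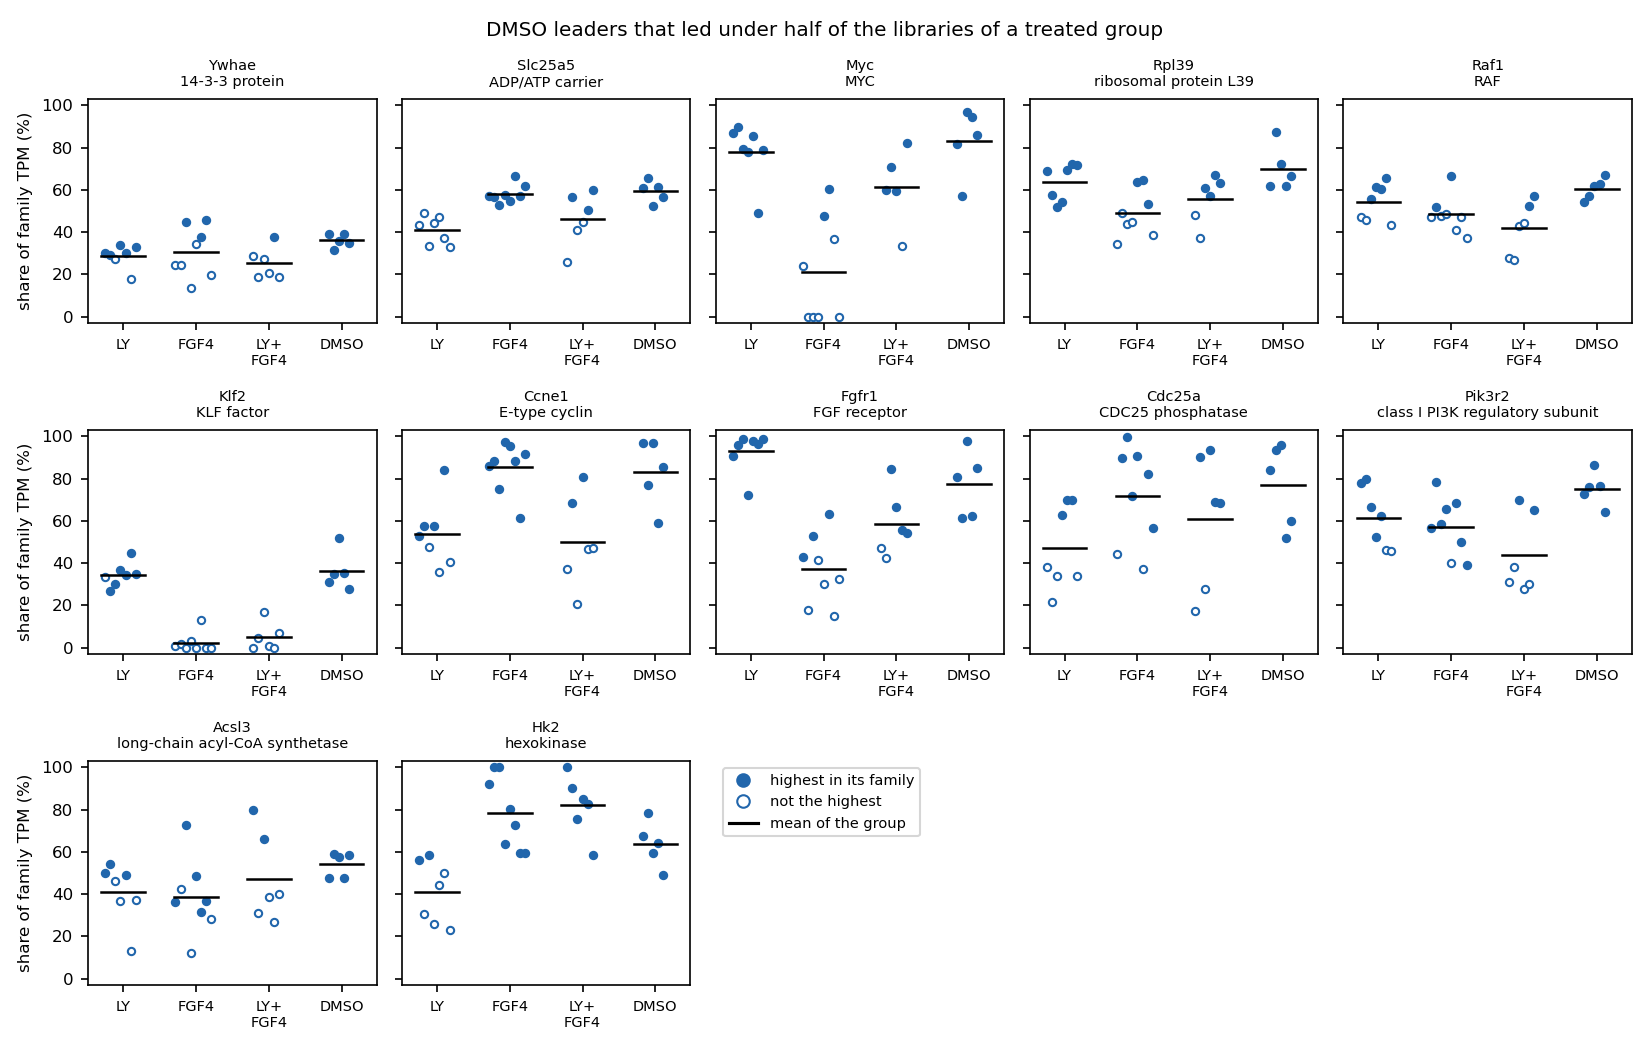
Share of the family's summed TPM (y axis, percent) held by the DMSO leader of 12 of these 13 families in each library of the LY, FGF4, LY+FGF4 and DMSO groups, with the group mean (line). Filled points are libraries in which that gene was the highest of its family, as in all DMSO libraries, and Klf2 has no filled point in FGF4 and LY+FGF4.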

How the data were processed

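Whole ICMs were profiled in 26 FLASH-seq libraries, 5 of them cultured with DMSO. The authors deposited 1 table of TPM per gene symbol, a length-normalised value without read numbers, for 55254 symbols. STAR, RSEM and mm10 are named in the submitters' processing notes, and per the labels' protocols reads were trimmed and de-duplicated; versions and settings are not given in the sources used. Biotypes were taken by symbol from GENCODE for GRCm38 (53255 symbols matched), which may differ from the authors' annotation. Groups follow the labels, with each library 1 ICM; whether replicates share a litter is unknown, so p-values measure the spread between these libraries.

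Members, gene lists and families were chosen with earlier results of these data known, and the symbol groups after seeing the values. Named genes are the 30 most abundant, the members of the lists and families, and the 20 most and 10 least variable. Means are given ± SD over 5 libraries. Treated groups were compared with DMSO by limma 3.58.1 (R 4.3.3) on log2(TPM + 1) over all 26 libraries, with trend and robust options, for the 12034 genes that reached TPM 1 in no fewer than 5 libraries, with Benjamini-Hochberg adjustment. A fold change on this scale understates that of low genes. The code was tested on simulated data. Alternatives were another pseudocount, no filter, only the groups compared, a replicate block and leaving out libraries. A few genes are not reported here.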

Additional observations from a re-analysis of the deposited data

Results flagged for a closer look

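For each gene named with values in DMSO libraries, and for the treated groups of 4 to 10 libraries where tested genes are named, the highest and the lowest library were set against the nearest other library (Dixon's ratio). Of 228 such sets of values 26 had a library far from the others, 22 at the high end and 4 at the low end. Chance flags about 1 in 20 groups of normally distributed values, which TPM near 0 are not: 5 of the DMSO sets held 4 zeros and 1 value above 0. DMSO replicate 8 accounted for 10 of them and replicate 9 for 5.

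DMSO replicate 8 stood high for 3 primitive endoderm genes, Gata4 (29.1 TPM, next library 6.53), Serpinh1 (206.8, next 30.5) and Lama1 (38.71, next 7.38). It was also high for the water channel Aqp8 (142.6) and the iron store Ftl1 (2373). The other genes it led were low in all libraries, with Nr0b1 at 2.95, Aldoc at 10.14, Ldhb at 6.52, Tmsb4x at 4.1 and Ccnd1 at 4.05 TPM.

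In DMSO replicate 9 the translation factor Eif5a (2599, next 3856) and the TCA cycle enzyme Mdh2 (688.6, next 775.4) were low, and Nhej1 (160.7, 0 elsewhere), Hk1 (12.02) and Zp3 (11.31) were high. In DMSO replicate 6 Stat3 (196.2), Slc2a3 (169.5) and Acaca (10.11) were high and Insr was low (0.23, next 5.02). In DMSO replicate 3 Cdk6 (38.28, next 0.21) and Elf5 (2.29, 0 elsewhere) were high, and in DMSO replicate 7 Porcn (214.5) was high.

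Among FGF4 libraries, replicate 6 was apart for 3 genes, with Klf2 (41.22 TPM) and Myc (89.8) the highest and Fgfr2 (21.87) the lowest of the 8. Each of these values lay on the side of the DMSO libraries. Klf5 was highest in FGF4 replicate 2 (234.3).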

How the results depend on the processing

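Leaving out 1 DMSO library in turn gave 8631 to 8898 genes detected in all remaining libraries, 18.03% to 18.7% of TPM in the 100 most abundant genes, 4.66% to 4.91% in ribosomal protein genes, 75 to 81 families with 1 leader and 44 to 53 genes with a standard deviation above 2. With a mean TPM of at least 5 in place of 20, that last count was 141. Leaving out 1 library of either group gave 16 to 50 genes called under LY (45 with all libraries), 112 to 431 under FGF4 (294) and 672 to 1285 under LY+FGF4 (1143). Of the 100 most abundant genes, 3 to 5, 11 to 28 and 20 to 43 were then called.

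Over 31 pairs of libraries with the same replicate number, the median correlation of their deviations from the group means was -0.00406 (-0.0824 to 0.068). Whether the numbers mark a shared litter or day is unknown and was not tested. With the replicate block 5, 41 and 460 genes were called under LY, FGF4 and LY+FGF4, of which 1, 5 and 23 were among the 100. Of the 22 calls of named genes tested, 8 held under the block and 14 were lost, those of Arl6ip1 and Fbp2 under LY among them (limma adjusted p = 0.0611 and 0.11), while Ftl1 held (limma adjusted p = 0.0165). Without the libraries that list fewer than 9000 genes the counts were 134, 470 and 614, with 16 of the 100 under LY+FGF4. This setting left out FGF4 replicates 2 and 3 and kept only replicates 6 and 7 of LY+FGF4. Fitting only the 2 groups compared gave 179 genes under LY and 741 under LY+FGF4. The cause of these shifts was not tested. The log2 fold change of Slc25a4 under LY, -0.01 and not called, changed sign in 7 of 12 leave-outs (-0.075 to 0.026). The depth is unknown, which limits what values near 0 can show.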
